A study of Mus musculus with 7 samples.

Results

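The circadian clock genes encode the transcription factors, and the repressor proteins that act on them, of the molecular clock that runs in most cells of the body. The 10 genes described here are core members of this clock, matched by symbol: the activators Arntl, Clock and Npas2, the repressors Cry1, Per1, Per2 and Per3, the nuclear receptors Nr1d1 and Nr1d2, and the output factor Dbp. All 10 were found among the 14641 genes of the count table. RNA was sequenced from heart lysates of male C57BL/6J mice, 3 with the mNrf2-TG transgene and 4 non-transgenic (NTG) littermates. The mNrf2-TG mice carry full-length mouse Nrf2 (gene symbol Nfe2l2) behind the αMHC promoter, which drives expression in cardiomyocytes, and both groups keep their own Nfe2l2. The labels name no further treatment for either group. The lysates also hold endothelial cells, fibroblasts and immune cells, which do not use this promoter. The sources differ on age: the labels of the mNrf2-TG samples give 6 months, the study's methods 6 to 7 months and the series text 7 to 8 months, with no separate age for the NTG samples.

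In background, the clock is a loop of transcription and feedback. Arntl encodes BMAL1, which pairs with CLOCK or its relative NPAS2, binds E-box sequences and switches on the Per and Cry genes, whose proteins then return to the nucleus and block BMAL1 and CLOCK. A second loop runs through NR1D1 and NR1D2 (REV-ERBα and REV-ERBβ), which are induced at E-boxes and repress Arntl at ROR elements, and DBP carries the rhythm to further genes at D-boxes. In the heart this clock is known to time metabolism, growth and ion channel expression, and Arntl peaks at the opposite phase to Dbp, Nr1d1 and the Per genes, so transcript levels depend on the hour of collection. Mice were housed in a light and dark cycle, but neither labels nor methods give the hour at which each heart was taken, and the part of that hour in the values was not tested.

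Of the clock members, Per1 fell in the mNrf2-TG hearts, by 1.83-fold, and the other 9 did not pass the test. This is 1 of 10 members, where 17.2% of all genes tested were called in either direction, 8.73% lower and 8.48% higher in mNrf2-TG. All 10 Log2FC values (mNrf2-TG over NTG) were below 0, from -0.87 for Per1 to -0.06 for Clock, against 49.9% of genes tested. Outside the 10, the BMAL1 repressor gene Ciart fell by 3.38-fold. The promoters of 3 clock genes are printed because their letters hold E-boxes beside the results: Per1 and Ciart, which fell, and Cry1, which did not pass the test. Each line gives the 250 bases before an annotated start site, 5′ to 3′ on the gene's own strand, from RefSeq on build GRCm38.p6. Capitals mark a match to the E-box CACGTG or to the antioxidant response element (ARE) TGACNNNGC, the motif of Nrf2, on either strand. The positions are chr11:69098699-69098948 on the plus strand for Per1, chr3:95882229-95882478 on the minus strand for Ciart and chr10:85185055-85185304 on the minus strand for Cry1.
Per1: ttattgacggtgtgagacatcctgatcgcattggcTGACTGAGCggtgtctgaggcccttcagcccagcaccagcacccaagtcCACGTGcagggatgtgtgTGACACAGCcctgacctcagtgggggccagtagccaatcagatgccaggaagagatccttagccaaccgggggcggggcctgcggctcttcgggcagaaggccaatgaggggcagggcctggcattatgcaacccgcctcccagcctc
Ciart: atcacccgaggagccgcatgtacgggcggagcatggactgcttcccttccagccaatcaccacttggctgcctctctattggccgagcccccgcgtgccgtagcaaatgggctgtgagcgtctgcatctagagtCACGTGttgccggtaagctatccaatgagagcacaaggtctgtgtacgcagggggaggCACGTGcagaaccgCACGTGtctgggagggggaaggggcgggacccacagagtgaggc
Cry1: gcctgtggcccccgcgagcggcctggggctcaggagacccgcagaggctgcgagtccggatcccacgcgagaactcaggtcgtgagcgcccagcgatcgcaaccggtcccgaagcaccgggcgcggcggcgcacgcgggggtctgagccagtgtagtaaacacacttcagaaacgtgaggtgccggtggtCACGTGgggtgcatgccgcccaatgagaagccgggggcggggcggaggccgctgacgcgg
The Per1 E-box begins 166 bases before the start site, between ARE matches at 215 and 148 bases before it. Ciart holds 3 E-boxes, at 116, 58 and 44 bases before its start, and Cry1 holds 1 at 60 bases. Cry1 also has ARE matches that begin 8 and 1 bases before the start and run past the printed stretch, so they are not in capitals. A further Per1 start site had no match to any motif searched. The window of Noct, a clock output that also fell (Log2FC -1.16), had no match either.

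Windows from 250 bases before to 50 after a start were read for 9 of the 10 members, 13 windows in all, and for every other gene of the RefSeq table. Per2 had no window there and was not searched. The E-box was found in Cry1 and Per1, 2 of the 13 member windows, and in 7.15% of all 32851 windows. The D-box TTANGTAA, found in 2.32% of windows, was matched only by Per3 among the 9 members searched, at 205 and 158 bases before its start. The ROR element TAGGTCA, found in 2.61% of windows, was matched only by Arntl, beginning 31 bases into the transcript. The ARE was present in Cry1, Nr1d2 and Per1, 3 of the 13 member windows, against 12.4% of all windows. The cAMP response element TGACGTCA, present in 1.79% of windows, had 0 matches among the 9 members. Both strands were searched. The ARE matches of Cry1 overlap each other, and no other matches in the printed genes overlap. These matches are letters in a fixed window and no binding was measured.

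The 7 libraries held 6534684 to 8405857 counts each. Transcript levels are given as counts scaled by the trimmed mean of M-values (TMM) to the mean library size, and differences were tested with edgeR's quasi-likelihood test over 14637 genes with Benjamini-Hochberg adjustment, where a gene with an adjusted p below 0.05 was called. Nfe2l2 was at 1402, 1253, 752 and 1050 in NTG replicates 1 to 4 and at 12030, 10751 and 11654 in mNrf2-TG replicates 17, 18 and 19 (Log2FC 3.36, SE 0.18, edgeR adjusted p = 2.96e-06), so the groups are as labelled, with reads of the transgene and of the mouse's own gene counted together. NTG 3 stood apart from its group: its Euclidean distance on log2 values to the closest NTG library was 76.5, against 59.2 to 65.8 for the other 3 NTG libraries. All 5 cardiomyocyte markers were present in every library. Their sums were 451951 to 492849 in NTG and lower, 398873 to 432443, in mNrf2-TG, and 1 marker, Pln, fell. The endothelial markers Pecam1 and Cdh5 fell and Kdr rose, with a summed level of 4 markers of 5137 to 5665 in NTG and 4725 to 5157 in mNrf2-TG. Of 4 fibroblast markers Col1a1 and Tcf21 rose (sums of 6522 to 8262 and 8160 to 8686), and of 3 macrophage markers Csf1r and Adgre1 rose (385 to 483 and 742 to 1022). Of 6 skeletal muscle markers Myh1 and Myh4 fell (sums of 636 to 1240.5 and 428 to 669), while Mylpf, Tnnt3 and Actn3 had 0 to 10 counts a library. Myh2 went the other way without passing the test, at 3.45, 1.80, 70.1 and 45.8 in NTG and 92.5, 79.8 and 62.6 in mNrf2-TG, Mylpf was higher with no overlap, and the median Log2FC of the 6 was 0.15. Of the markers of atrium, fat and red blood cells edgeR called 0, with 1 of each list at an unadjusted p below 0.05. Whether these cell types had a part in the clock values was not tested, and in heart lysate fewer cells of a type cannot be told apart from less RNA per cell.

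The activators carry the positive limb of the loop. Arntl (chr7:113207465-113314126, plus strand, GRCm38) was at 36.8, 24.3, 49.5 and 49.8 in NTG 1 to 4, and at 28.0, 22.7 and 28.1 in mNrf2-TG 17 to 19. The NTG libraries themselves spanned 2.05-fold, and NTG 2 lay among the mNrf2-TG values. The Log2FC was -0.60 (95% interval -1.21 to 0.01, edgeR adjusted p = 0.159). Clock, on chromosome 5, was at 482, 491, 549 and 664 in NTG and 485, 567 and 516 in mNrf2-TG. The Clock groups overlapped, with a Log2FC of -0.06 and an interval of -0.32 to 0.20, and without NTG 4 the sign turned (0.05). Npas2, on chromosome 1, was at 21.8, 20.7, 29.9 and 24.9 in NTG and at 12.9, 6.90 and 20.9 in mNrf2-TG. Its lowest values were in mNrf2-TG 17 and 18 while mNrf2-TG 19 reached the NTG range, and at 7 to 29 raw counts a library the interval was wide (Log2FC -0.82, -1.60 to -0.05, edgeR adjusted p = 0.134). It moved to -1.29 without mNrf2-TG 19 and to -0.51 without mNrf2-TG 18.

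**Figure D1:**
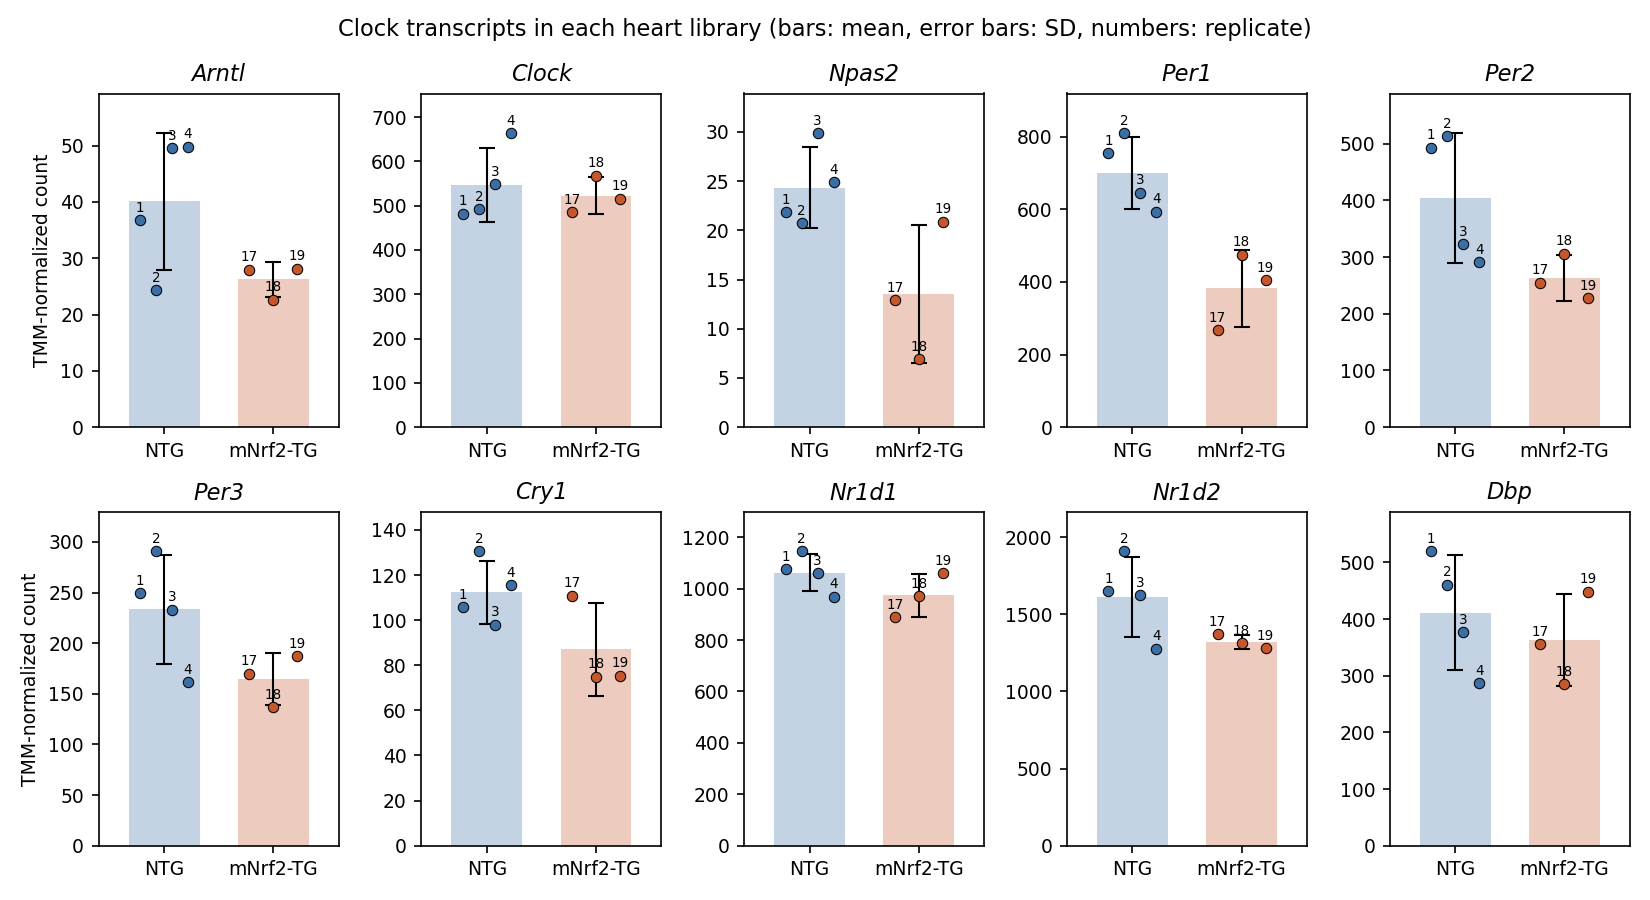
TMM-normalized counts of the 10 clock genes in each library, with 1 panel a gene and a linear axis from 0; points are libraries numbered by replicate, bars are group means and error bars the SD (4 NTG, 3 mNrf2-TG). In the Per1 panel alone the highest mNrf2-TG library, at 475, lies below the lowest NTG library, at 593.

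The Per and Cry genes encode the repressors that BMAL1 and CLOCK induce. Per1 (chr11:69095217-69109960, plus strand, GRCm38) was at 755, 810, 645 and 593 in NTG 1 to 4 and at 267, 475 and 404 in mNrf2-TG 17 to 19. Every mNrf2-TG library lay below every NTG library, and the means were 701 ± 99.1 (SD, n = 4) and 382 ± 106 (SD, n = 3). This gave a Log2FC of -0.87 (SE 0.18, interval -1.27 to -0.47, edgeR adjusted p = 0.0100). Per1 was called under all 13 alternative settings, with adjusted p-values of 5.56e-05 to 0.0318. Without mNrf2-TG 17, which held the lowest value, the Log2FC was -0.67.

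Per2, on chromosome 1, split its NTG libraries into 493 and 513 in NTG 1 and 2 and 323 and 291 in NTG 3 and 4. The mNrf2-TG libraries were at 255, 306 and 228, so that mNrf2-TG 18 lay above NTG 4. Its Log2FC of -0.62 (SE 0.21, interval -1.08 to -0.17) did not pass the test (edgeR adjusted p = 0.0638). It passed with DESeq2 (adjusted p = 0.0230), and in edgeR without NTG 3 (adjusted p = 0.0265) or without NTG 4 (adjusted p = 0.0273). Per3, on chromosome 4, was at 249, 291, 233 and 161 in NTG and 170, 137 and 187 in mNrf2-TG, where NTG 4 was the only control inside the mNrf2-TG range. Its Log2FC was -0.50 (edgeR adjusted p = 0.0918), and without NTG 4 it was -0.64 and passed (adjusted p = 0.0184). Cry1, a partner of the PER proteins, was at 106, 130, 98.0 and 115 in NTG and at 111, 74.9 and 75.3 in mNrf2-TG. Here mNrf2-TG 17, the lowest library for Per1, lay within the NTG values, and the Log2FC was -0.38 (interval -0.76 to -0.00, edgeR adjusted p = 0.154).

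The REV-ERB genes are both repressors of Arntl. Nr1d1 (chromosome 11) was at 1077, 1145, 1060.0 and 969 in NTG and at 890, 970.4 and 1060.2 in mNrf2-TG. The NTG values had a coefficient of variation of 6.82%, the smallest of the 10 members, and the Log2FC of -0.13 had an interval of -0.31 to 0.06. Nr1d2 (chromosome 14) was at 1652, 1908, 1626 and 1276 in NTG and at 1372, 1313 and 1283 in mNrf2-TG. NTG 4 alone lay below the mNrf2-TG libraries, and the Log2FC of -0.29 (edgeR adjusted p = 0.119) became -0.38 and passed without it (adjusted p = 0.0196). Of the 50-base stretches of Nr1d2, 5.13% were shared with another annotated gene and might be split between them in counting, against 0 for the other 9 members. Dbp, a transcription factor that the clock drives through E-boxes, was at 519, 461, 376 and 287 in NTG and 356, 285 and 448 in mNrf2-TG. The groups overlapped, though NTG 1 and 2 lay above every mNrf2-TG library (Log2FC -0.18, interval -0.63 to 0.27, edgeR adjusted p = 0.595). The Dbp Log2FC ran from -0.36 to -0.03 as single libraries were left out. Exons of Dbp share 539 bases with Sphk2 and those of Nr1d1 share 263 bases with Thra, each on the opposite strand, and the sources do not say whether counting used strand. Sphk2 had a Log2FC of 0.04 and Thra of -0.01.

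Further counts over the members stand beside those over all genes. Groups did not overlap for 29.7% of genes tested (14.7% lower) and for 1 member, Per1. At an unadjusted p below 0.05 stood 6 members, all lower, against 32.2% of genes tested in either direction and 16.3% lower. The median Log2FC was -0.44 over the members and 0.0012 over all genes tested. With NTG 3 left out 2 members were called, Per1 and Per2, against 20.2% of genes tested. With NTG 4 left out 4 were called, Per1, Per2, Per3 and Nr1d2, against 14.7%. DESeq2 on all libraries called Per1 and Per2, against 18.8% of the genes it tested.

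**Figure D2:**
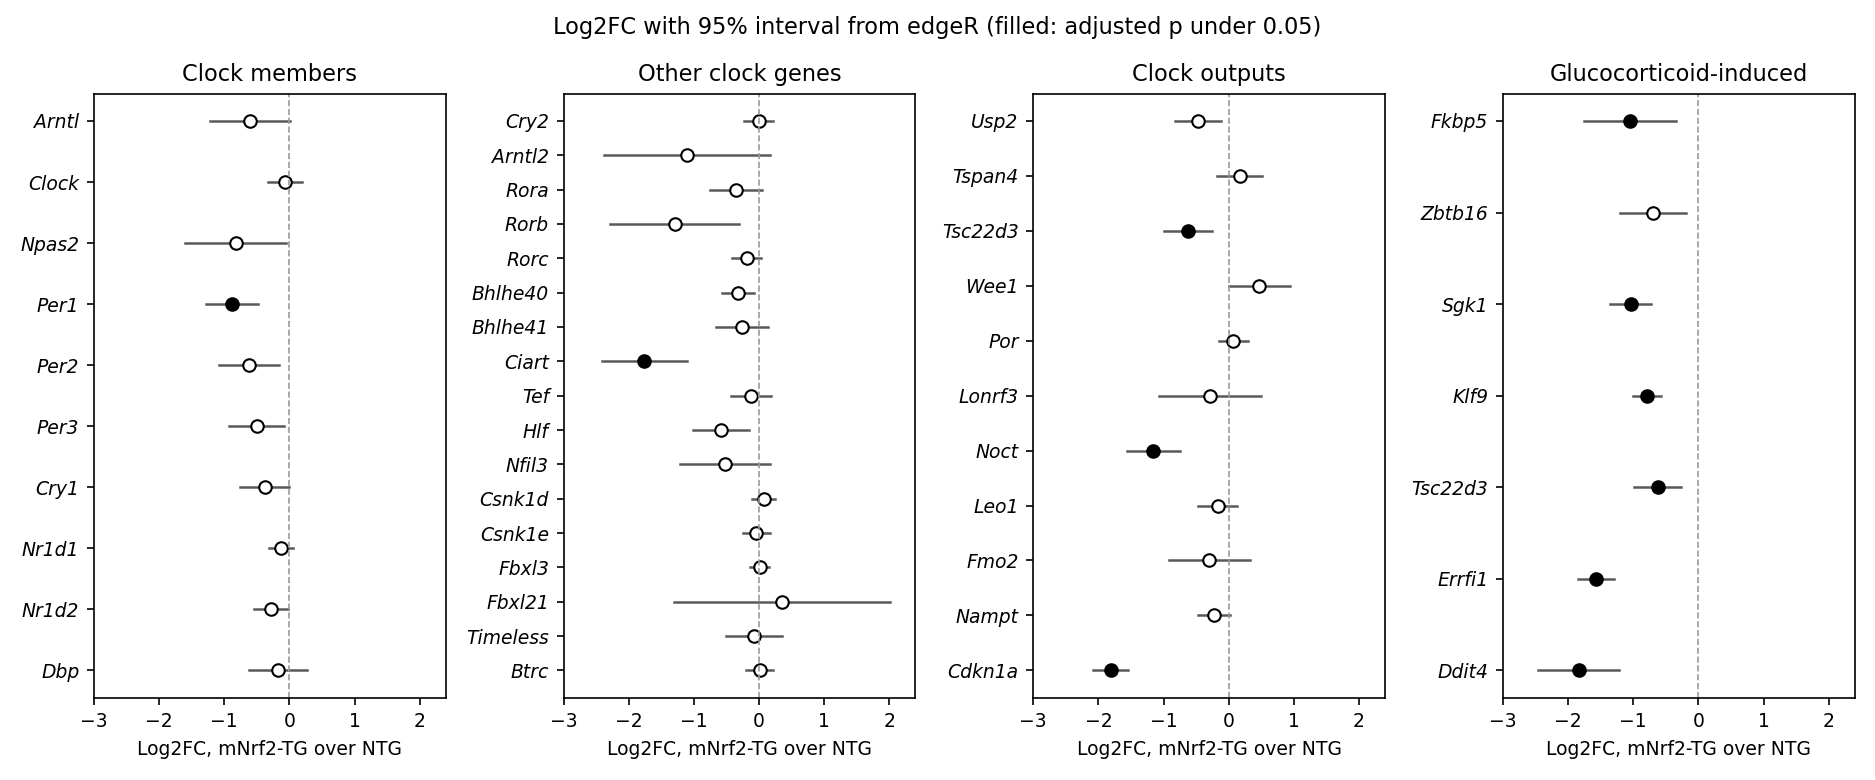
Log2FC (mNrf2-TG over NTG, horizontal axis) with its 95% interval from edgeR for the clock members, 17 other clock genes, 11 clock outputs and 7 glucocorticoid-induced genes; filled points have an adjusted p below 0.05. Per1 is the filled point of the first panel and Ciart of the second, and 6 of 7 points are filled in the last.

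Levels between genes can be compared only per length. Per kilobase of exon, the normalized count in NTG ran from 345 ± 23.6 for Nr1d1 and 299 ± 48.0 for Nr1d2, through 137 ± 33.9 for Dbp and 124 ± 17.6 for Per1, to 5.33 ± 1.61 for Arntl and 5.08 ± 0.859 for Npas2 (SD, n = 4). Between them stood Per2 (69.1 ± 19.5), Clock (39.8 ± 6.11), Cry1 (33.7 ± 4.20) and Per3 (24.3 ± 5.62). Neighbours whose NTG ranges overlapped were Nr1d1 and Nr1d2, Dbp and Per1, Clock and Cry1, Cry1 and Per3, and Arntl and Npas2. Per kilobase of the longest transcript instead, the NTG levels of Arntl (10.03), Dbp (224) and Per3 (38.9) were over 1.5 times as high, and Cry1 and Per3 exchanged places. Per kilobase of exon the order was the same in mNrf2-TG, where Per1 stood at 67.8 ± 18.8 and Dbp at 121 ± 27.4 (SD, n = 3).

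The NTG libraries varied among themselves. NTG 4 held the lowest NTG value of 6 members, Per1, Per2, Per3, Nr1d1, Nr1d2 and Dbp, and the highest of Arntl and Clock. NTG 2 was at the other end, highest of the NTG libraries for Per1, Per2, Per3, Cry1, Nr1d1 and Nr1d2 and lowest for Arntl and Npas2. The ratio of Dbp to Arntl, genes that peak at opposite phases, was 14.1, 18.96, 7.60 and 5.76 in NTG 1 to 4. In mNrf2-TG 17 to 19 it was 12.7, 12.6 and 15.9, inside the NTG range and closer together. Nr1d1 over Arntl was likewise inside it, at 31.8, 42.8 and 37.7 against 19.5 to 47.1 in NTG. The mNrf2-TG libraries shared no single order: mNrf2-TG 17 was lowest in its group for Per1, Clock and Nr1d1, mNrf2-TG 18 for Arntl, Npas2, Per3, Cry1 and Dbp, and mNrf2-TG 19 for Per2 and Nr1d2.

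**Figure D3:**
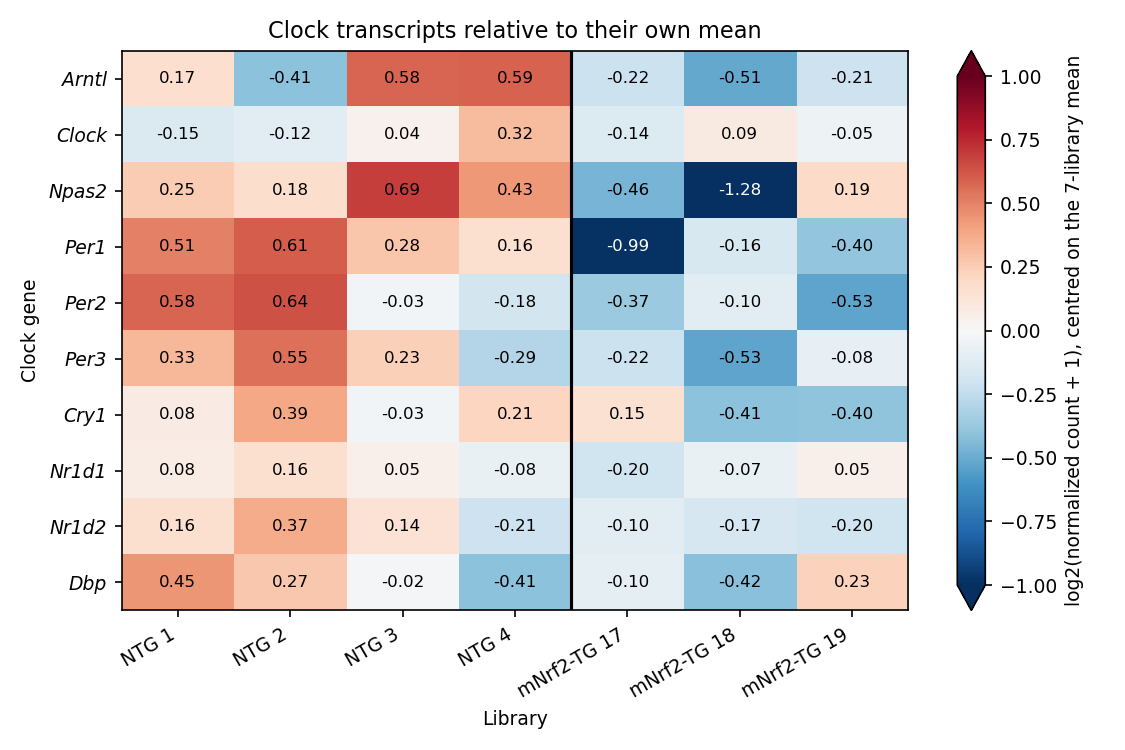
log2(normalized count + 1) of each clock gene (rows) in each library (columns), less its mean over the 7 libraries; red is above and blue below that mean, and the line divides NTG from mNrf2-TG. NTG 2 is above the mean for 8 genes outside Arntl and Clock, NTG 4 is below it for Per2, Per3, Nr1d1, Nr1d2 and Dbp, and Per1 runs from 0.61 in NTG 2 to -0.99 in mNrf2-TG 17.

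Ratios within a library were also taken for Per1 and Ciart against genes of a similar phase. The ratio of Per1 to Nr1d1 was 0.701, 0.708, 0.609 and 0.613 in NTG and 0.300, 0.489 and 0.381 in mNrf2-TG, with no overlap. Per1 over Dbp was at 1.45 to 2.07 in NTG and 0.749, 1.67 and 0.901 in mNrf2-TG, where mNrf2-TG 18 lay in the NTG range. Ciart over Dbp was 0.305, 0.357, 0.282 and 0.264 in NTG and 0.0906, 0.111 and 0.105 in mNrf2-TG, again with no overlap. These ratios were chosen after the levels were known and carry no test.

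**Figure D4:**
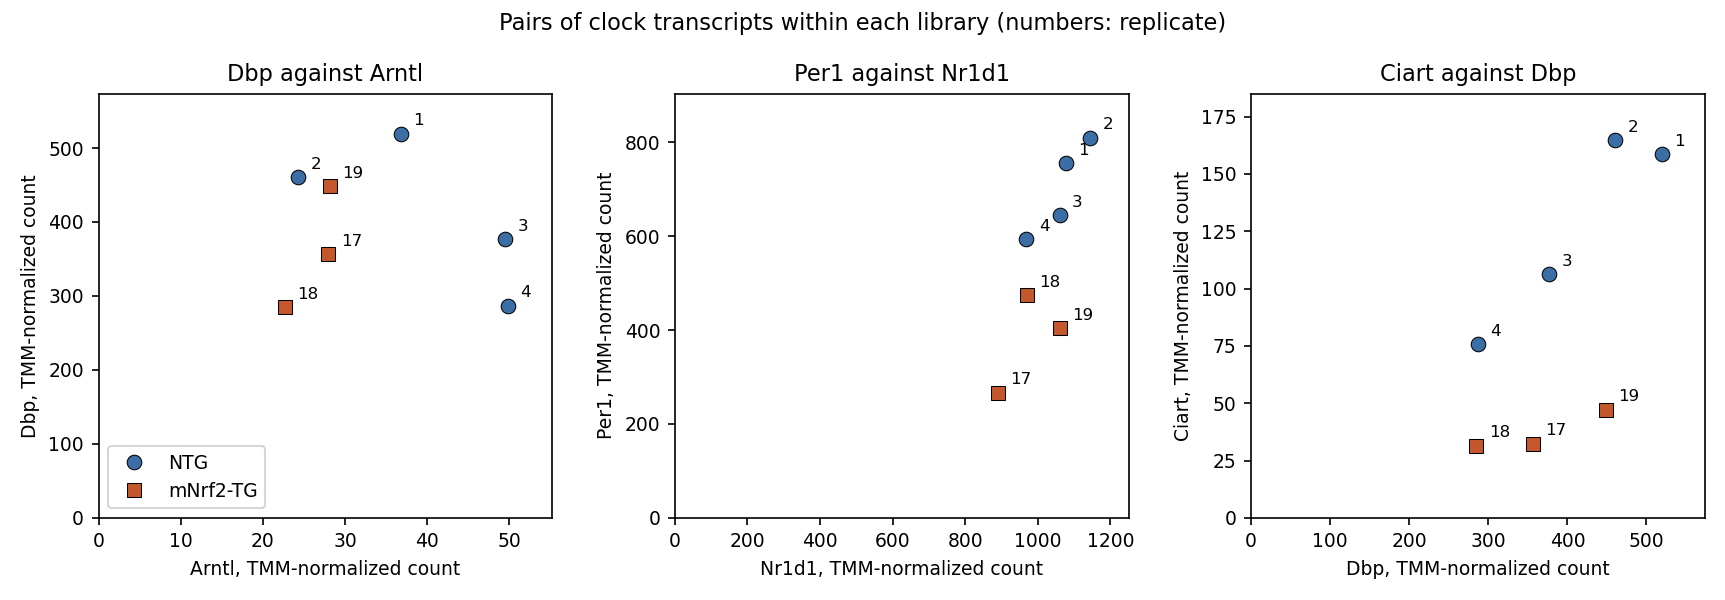
TMM-normalized counts of Dbp against Arntl, Per1 against Nr1d1 and Ciart against Dbp on linear axes, 1 point a library with its replicate number (circles NTG, squares mNrf2-TG). For Dbp and Arntl the mNrf2-TG points have ratios of 12.6 to 15.9, within the NTG ratios of 5.76 to 18.96, and in the other panels no mNrf2-TG point reaches the lowest NTG value on the vertical axis (Per1 593, Ciart 75.7).

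Among 17 other genes of the clock and its regulation, Ciart fell and the other 16 did not pass the test. This share, 1 of 17, stands beside 17.2% called over all genes tested, 8.73% lower. Ciart (CHRONO), which represses BMAL1 and CLOCK, was at 159, 165, 106 and 75.7 in NTG and at 32.3, 31.5 and 47.2 in mNrf2-TG. NTG 4 was again the lowest control and still lay above every mNrf2-TG library (Log2FC -1.76, SE 0.29, edgeR adjusted p = 0.00426), and Ciart was called under all 13 alternatives. Cry2, the other cryptochrome, was at 364 ± 40.8 (SD, n = 4) and 363 ± 21.4 (SD, n = 3), with a Log2FC of -0.01 whose sign turned under 4 alternatives. Hlf and Tef encode relatives of DBP that bind the same D-box. Hlf was at 540.2, 576, 363 and 335 in NTG and 286, 279 and 343 in mNrf2-TG (Log2FC -0.58, edgeR adjusted p = 0.0628), and passed with DESeq2 (adjusted p = 0.0237), without NTG 3 (adjusted p = 0.0239) or without NTG 4 (adjusted p = 0.0278). Tef had a Log2FC of -0.12 (edgeR adjusted p = 0.585). Rorb, a receptor that competes with the REV-ERBs for ROR elements, had groups that did not overlap but few counts (Log2FC -1.30, edgeR adjusted p = 0.0715). The list's median Log2FC was -0.19, with 13 of 17 values below 0. Without NTG 3 the list had 3 calls, with Hlf and Bhlhe40 added (20.2% of all genes), and it had 2 without NTG 4 (14.7%) or mNrf2-TG 19 (11.2%).

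Of 11 genes known as outputs of the clock in several tissues, 3 fell and 0 rose (8.73% and 8.48% over all genes tested), with a median Log2FC of -0.29. Noct encodes nocturnin, a rhythmic enzyme, and was at 902, 931, 763 and 797 in NTG and 251, 476 and 414 in mNrf2-TG (Log2FC -1.16, SE 0.18, edgeR adjusted p = 0.00332). Its library order in mNrf2-TG, lowest in 17 and highest in 18, was that of Per1. The order in NTG was not, with NTG 3 lowest for Noct and NTG 4 lowest for Per1. Cdkn1a, which encodes the cell cycle inhibitor p21 and is repressed by REV-ERBα in other tissues, was at 457, 482, 575 and 610.3 in NTG and 148, 164 and 142 in mNrf2-TG (Log2FC -1.81, SE 0.12, edgeR adjusted p = 1.74e-05). Tsc22d3, which encodes the glucocorticoid-induced leucine zipper, fell by 0.62 on the log2 scale (edgeR adjusted p = 0.0270) and lost its call without NTG 1, NTG 2, mNrf2-TG 17 or mNrf2-TG 18 (adjusted p-values of 0.0542 to 0.0761). Usp2, a deubiquitinase with a strong rhythm in many tissues, had a Log2FC of -0.48 (edgeR adjusted p = 0.0662) and passed with DESeq2 (adjusted p = 0.0270) and without NTG 3 (adjusted p = 0.0027). Wee1 went the other way without passing the test (Log2FC 0.47, interval 0.01 to 0.93, edgeR adjusted p = 0.148). Its values were 242.5, 254, 276 and 130 in NTG and 339, 280 and 320 in mNrf2-TG. Groups did not overlap for 4 of the 11 genes, 3 lower and 1 higher (Wee1), against 29.7% of all genes tested.

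Of 10 genes known to follow the clock in heart, 3 fell and 3 rose (8.73% and 8.48% over all genes tested), with a median Log2FC of -0.07. Klf15, a rhythmic factor of cardiac metabolism, was at 819, 1001, 948 and 611 in NTG and 501, 596 and 578 in mNrf2-TG (Log2FC -0.60, edgeR adjusted p = 0.0254), and lost its call without any 1 of 5 libraries, the 3 mNrf2-TG libraries and NTG 1 and 2 (adjusted p-values of 0.0559 to 0.100). Kcnip2, the KChIP2 subunit of the transient outward potassium channel that KLF15 is known to activate, rose from 719 ± 73.0 (SD, n = 4) to 2047 ± 82.3 (SD, n = 3), with a Log2FC of 1.51 (edgeR adjusted p = 5.23e-06). The potassium channel gene Kcnh2 rose as well (Log2FC 0.79, edgeR adjusted p = 0.00562), as did Bdh1 of ketone body oxidation (Log2FC 1.02, edgeR adjusted p = 0.0286). The Bdh1 call was lost without NTG 1, NTG 4, mNrf2-TG 17 or mNrf2-TG 18 (adjusted p-values of 0.0506 to 0.0910). Pik3r1, a regulatory subunit of PI3 kinase, and Dgat2, which makes triglycerides, fell by 0.75 and 0.86 on the log2 scale (edgeR adjusted p = 0.00640 and 0.00427).

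Clock phase in peripheral tissue is also set by body temperature and by glucocorticoids. Per1 is known to be induced by glucocorticoids and Per2 by heat. Of 7 glucocorticoid-induced genes, 6 fell and 0 rose, against 8.73% and 8.48% of all genes tested, with a median Log2FC of -1.04. As with the other lists, these genes were chosen with earlier results of these data known, so this share carries no test. Their summed level was 5876 to 8179 in NTG and 3418 to 4257 in mNrf2-TG, with no overlap. Ddit4, which restrains mTOR, fell from 651 ± 153 (SD, n = 4) to 181 ± 74.0 (SD, n = 3, edgeR adjusted p = 0.00257). Errfi1, a feedback inhibitor of the EGF receptor, fell from 508 ± 37.3 (SD, n = 4) to 170.3 ± 29.3 (SD, n = 3, edgeR adjusted p = 4.97e-05). The kinase gene Sgk1 fell from 957 ± 88.4 (SD, n = 4) to 466 ± 110.1 (SD, n = 3, edgeR adjusted p = 0.00158). Groups did not overlap for 6 of the 7 genes, all but Zbtb16 and all lower, against 29.7% of all genes tested (14.7% lower). Klf9 fell by 0.79 on the log2 scale (edgeR adjusted p = 0.000866). Fkbp5, a cochaperone of the glucocorticoid receptor, was at 551, 774, 1349 and 458 in NTG and 343, 384 and 407 in mNrf2-TG. Its call (Log2FC -1.05, edgeR adjusted p = 0.0465) was lost under 6 of 13 alternatives, among them leaving out NTG 2 or any mNrf2-TG library (adjusted p-values of 0.0922 to 0.143). Zbtb16 had a Log2FC of -0.69 and did not pass (edgeR adjusted p = 0.0617), though it passed with DESeq2 (adjusted p = 0.0117) and without NTG 4 (adjusted p = 0.0056). Tsc22d3 belongs to this list as well as to the outputs. The part of these genes' shared fall in the Per1 value was not tested.

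Of 8 temperature-regulated genes, 2 fell, Hspa8 and Hspa1b, and 0 rose, where 8.73% of all genes tested fell and 8.48% rose. The list's median Log2FC was -0.82. Hspa8, a constitutive chaperone, was at 11650, 10647, 9366 and 9974 in NTG and 5785, 8002 and 6150 in mNrf2-TG (Log2FC -0.65, edgeR adjusted p = 0.00622). The heat-inducible Hspa1b was at 2086, 1190, 120 and 1026 in NTG and 320, 177 and 101 in mNrf2-TG, so that NTG 3 lay among the mNrf2-TG libraries. The Hspa1b call (Log2FC -2.48, edgeR adjusted p = 0.0443) held under 6 of 13 alternatives and was lost when any library but NTG 3 was left out (adjusted p-values of 0.0696 to 0.141). Without NTG 3, 6 of the 8 genes were called, against 20.2% of all genes tested. Cirbp and Rbm3, RNA-binding proteins that rise with cold, had Log2FC values of 0.01 and -0.06, with intervals of -0.19 to 0.22 and -0.34 to 0.21.

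Genes most like Dbp and Arntl across the 7 libraries were sought as the smallest root mean square (RMS) difference in centred log2(normalized count + 1), among 9666 genes with a mean of at least 50. For Dbp, whose own RMS around its mean was 0.312, these were Phkg1 (0.110), Dctn3 (0.131), Gcat (0.157), Vav2 (0.157) and Trmu (0.157), against a median of 0.355 over all genes. For Arntl, with an own RMS of 0.421, they were Dnaaf3 (0.104), Slc38a4 (0.154), Arhgef19 (0.172), Rom1 (0.175) and Nkain1 (0.184), against a median of 0.447. Arntl itself lay below the mean of 50 asked of these genes, at 24.3 to 49.8 in NTG and 22.7 to 28.1 in mNrf2-TG. Its own profile is therefore less precise. The clock members were left out of this search, and likeness over 7 libraries is a description.

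**Figure D5:**
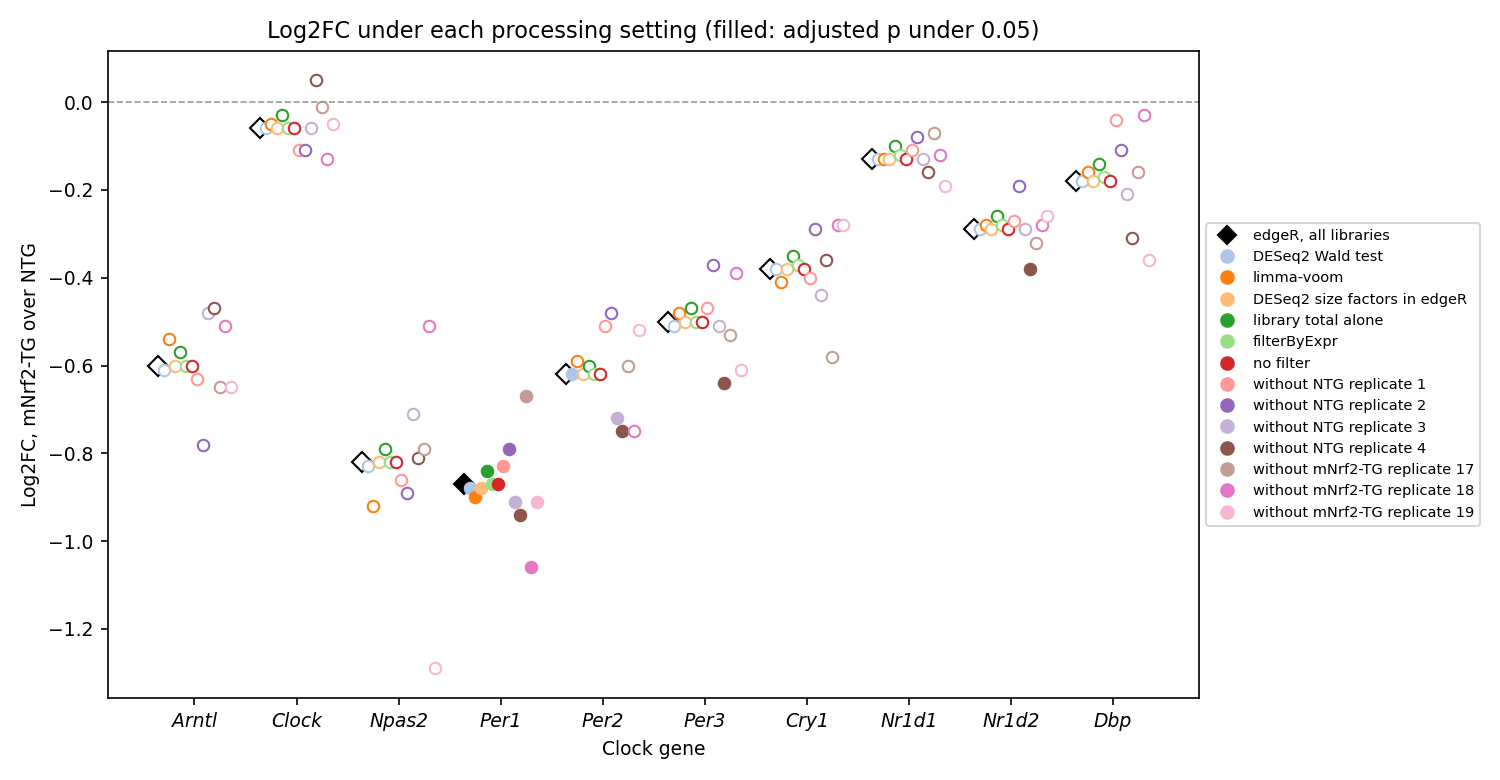
Log2FC of each clock gene (vertical axis) under edgeR with all libraries (diamonds) and under 13 other settings (circles), with filled symbols for an adjusted p below 0.05. Every Per1 symbol is filled, between -1.06 and -0.67, while filled symbols elsewhere are 3 for Per2 and 1 each for Per3 and Nr1d2, and the symbol for Clock without NTG 4 lies above 0.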

How the data were processed

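Polyadenylated RNA from 7 hearts (4 NTG, 3 mNrf2-TG) was made into TruSeq stranded mRNA libraries and read as single 50-base reads. The authors aligned the reads with Novoalign 2.08.01 to mm10 (their methods also name an hg19 index) and deposited raw counts per gene. The counting program and its use of strand are not given in the sources used here. They also deposited regularized log2 values and a DESeq2 1.32.0 comparison. That deposited comparison holds mean signal, log2 fold changes, Wald scores and p-values of the authors, and none of its values were used.

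Genes were reduced to 1 entry per Entrez gene (14641 of 14665 entries), and 58 symbols were taken from RefSeq. Genes with a summed count above 1 were tested with edgeR 4.0.16 (TMM, quasi-likelihood, two-sided, R 4.3.3), with p-values adjusted over all 14637. SE is the absolute Log2FC over the square root of F. Each library was taken as 1 mouse. If libraries share an animal, p-values measure only the spread between libraries. No pair of libraries agreed within sampling noise. The members and gene lists were chosen with earlier results of these data known. Genes are named from these fixed lists; which uncalled list genes to describe was chosen after their values were seen. The smallest RMS difference set the genes most like Dbp and Arntl.

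Alternatives were DESeq2 1.42.0, limma-voom 3.58.1, DESeq2 size factors, the library total alone, filterByExpr, no filter, and leaving out each of the 7 libraries. On simulated counts for this comparison (14597 genes, 200 changed by a log2 of 1), 86% of changed genes were recovered and 8.99% of calls were false. The 200 changed genes were far fewer than the 2519 called in the data, so the 8.99% need not hold for these calls. The changed genes were drawn only from those above a floor of mean count. Their change was larger than that of any clock member (Per1, Log2FC -0.87), so the 86% does not hold for the members that did not pass. Gene positions are from GENCODE on GRCm38. The depth limits precision most for Arntl and Npas2, at 50 counts or fewer a library.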

Additional observations from a re-analysis of the deposited data

Results flagged for a closer look

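Among the 62 genes of the clock and comparison lists, a test for 1 extreme value among the 4 NTG libraries (Dixon's ratio above its 95% critical value) marked 2. The cell type markers were not screened. Chance marks about 1 in 20 groups. Fmo2, a flavin monooxygenase in the clock output list, was at 714.57 in NTG 3, against 301 to 357 in the other NTG libraries. Nampt, the rhythmic enzyme of NAD salvage, was at 3031.7 in NTG 4, against 3908 to 3997 in the others. Neither gene was called between the groups, and none of the 10 clock members was marked. The 3 mNrf2-TG libraries are too few for this test.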

How the results depend on the processing

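Of 130 values (10 clock members under 13 alternatives), 124 kept their direction and their side of the threshold, 5 newly passed it and 1 reversed. DESeq2 called 2 members in place of 1, with Per2 at a Log2FC of -0.62. Leaving out each library in turn gave 1 to 4 members called and 9 to 10 with a Log2FC below 0. The ranges of Log2FC were -0.13 to 0.05 for Clock, -0.75 to -0.48 for Per2, -0.64 to -0.37 for Per3, -0.38 to -0.19 for Nr1d2, -1.29 to -0.51 for Npas2, -0.36 to -0.03 for Dbp, -0.78 to -0.47 for Arntl, -0.58 to -0.28 for Cry1, -1.06 to -0.67 for Per1, -0.19 to -0.07 for Nr1d1 and -0.06 to 0.06 for Cry2. The value of Cry2 was 0.02 with the library total alone. Over all genes, leaving out 1 library gave 1373 to 2950 called genes (2519 with all), of which 669 to 1479 were lower. For other clock genes the count was 2 with DESeq2 and 1 to 3 with a library left out. For temperature-regulated genes it was 1 with limma-voom and 1 to 6 with a library left out. Per kilobase of the longest transcript in place of all exons, the NTG level was 10.03 for Arntl, 56.1 for Clock, 150.1 for Per1, 38.9 for Per3, 391 for Nr1d1 and 224 for Dbp, and Cry1 and Per3 exchanged places. Scaling by the library total alone moved the median Log2FC of all genes from 0.0012 to 0.0309. Where a call was lost or gained, the cause was not tested. No paired analysis was possible because the labels name no litter or pair, and the replicate numbers only number the libraries. Counts of 7 to 50 a library limit Arntl and Npas2.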
